A study of Mus musculus with 12 samples.

Results

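The suppressors of cytokine signalling (SOCS) are proteins that switch off the cytokine signals which induced them. The family measured here was made up of every probe set annotated to Socs1, Socs2, Socs3, Socs4, Socs5, Socs6, Socs7 or Cish alone. These were 24 of the 45037 non-control probe sets on the array and 8 of its 18193 gene symbols. The samples were regulatory T cells (Tregs), the T cells that hold back other immune responses, and the RNA of each was hybridised to an Affymetrix mouse array, 12 in all. Tregs came from mice of 4 genotypes with 3 arrays each, were sorted by flow cytometry, were given no treatment and were used fresh. The genotypes were the double knockout (Ebi3 –/– Il10 –/–), Il10 –/–, Ebi3 –/– and wild type. Ebi3 encodes a subunit of both IL-27 and IL-35, and Il10 the cytokine IL-10. Each array also carries a batch label from 1 to 3, equal to its replicate number, so each batch held 1 array of each genotype. Strain, age, sex and the design of the knockout alleles are not in the labels, which also do not say whether replicates came from separate animals. The p-values below therefore measure the spread between these arrays, which may be technical.

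Many cytokine receptors work through Janus kinases (JAKs), which add phosphate to STAT transcription factors, and the STATs in turn activate the genes of SOCS proteins. A SOCS protein binds the receptor or the kinase and, through its SOCS box, recruits a ubiquitin ligase that marks bound proteins for destruction. Socs3 is induced through STAT3 by IL-6 and IL-10 and acts on the IL-6 receptor chain gp130, while Cish and Socs2 are induced through STAT5, the STAT used by IL-2 in Tregs. Socs1 restrains interferon and IL-2 signals and is needed for stable Tregs.

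The promoters of Socs3 and Cish are shown because both genes are known STAT targets. Socs3 has the 1 probe set of the family that passed a pairwise comparison described below, in the fit with batch only. Cish passed in none, which does not show that it was alike in all genotypes, and stands beside it. Both are RefSeq sequences of build GRCm38.p6, written 5′ to 3′ along the gene, covering 250 bases before the transcription start and 30 bases after it. The Socs3 promoter lies at chr11:117969337-117969616 on the minus strand and the Cish promoter at chr9:107296409-107296688 on the plus strand. Capitals mark matches to TTCNNNGAA, a STAT motif that reads the same on both strands.
Socs3: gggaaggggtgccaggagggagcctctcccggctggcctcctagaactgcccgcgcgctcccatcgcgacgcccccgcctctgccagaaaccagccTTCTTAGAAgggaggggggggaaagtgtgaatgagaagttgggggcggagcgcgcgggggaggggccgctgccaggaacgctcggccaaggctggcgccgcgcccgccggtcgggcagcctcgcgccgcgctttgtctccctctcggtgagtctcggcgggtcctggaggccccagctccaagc
Cish: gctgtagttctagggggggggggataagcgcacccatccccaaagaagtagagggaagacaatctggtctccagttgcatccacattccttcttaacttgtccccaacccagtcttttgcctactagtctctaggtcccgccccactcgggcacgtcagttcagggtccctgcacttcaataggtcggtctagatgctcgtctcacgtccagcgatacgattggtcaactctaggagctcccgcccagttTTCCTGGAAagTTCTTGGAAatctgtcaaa
Socs3 held 1 match, TTCTTAGAA, at positions -154 to -146 from the start. Cish held 2 matches at its start, TTCCTGGAA and TTCTTGGAA. Of 32851 promoters of this length, 7.83% held 1 or more matches and 0.408% held 2 or more. A match describes these letters and is not evidence of binding. Promoters were taken for 4 of the 8 genes, with Socs6 left out, and those of Socs1 and Socs4 held 0 matches.

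The deposited values were turned into MAS5 signals, the array software's brightness scale, on which every array had the same trimmed mean. The Ebi3 probe set read 15.2, 72.5 and 23.6 in the double knockout and 3, 29.4 and 39.5 in Ebi3 –/–, against 1062.5, 2057.3 and 1899.6 in Il10 –/– and 1159, 1727.8 and 1725.9 in wild type, in batches 1, 2 and 3. It separated the genotypes as labelled. The Il10 probe set read 2250.8, 2639.6 and 1016.7 in the double knockout, 2038.2, 1976 and 1027.8 in Il10 –/–, 1401.1, 2384.6 and 574.4 in Ebi3 –/–, and 184.5, 2939.8 and 483.8 in wild type. In Il10 –/– and in the double knockout it was above wild type in batches 1 and 3 and below it in batch 2, so it did not follow the label. Since the labels do not give the part of the gene that was removed, the probe set checks nothing about them. Directions by Il10 genotype below rest on the labels. Foxp3, the defining transcription factor of Tregs, read between 4945.3 and 7955 on the 12 arrays. Myeloid markers were highest in batch 3, and the wild type array of batch 1 stood apart in the immediate-early genes, which cells switch on within minutes of a stimulus. Their values are given beside Socs3.

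Socs3 signal was higher in Il10 –/– and in the double knockout than in wild type in every batch and for each of its 3 probe sets. The main probe set, 1455899_x_at, is the one of highest mean signal. In batches 1, 2 and 3 it read 13936.1, 9572.3 and 5706.4 in the double knockout, 14414.2, 12359 and 6153.8 in Il10 –/–, 11478.3, 7715.6 and 4397.2 in Ebi3 –/–, and 7243.4, 6872.7 and 4283.9 in wild type. The means were 9738 ± 4117 in the double knockout, 10976 ± 4300 in Il10 –/–, 7864 ± 3543 in Ebi3 –/– and 6133 ± 1612 in wild type (SD, n = 3 each). The groups overlapped, because batch 3 was low in every genotype. Within each batch the order was the same, with Il10 –/– highest, then the double knockout, then Ebi3 –/–, and wild type lowest. The plot of the Socs3 probe sets shows this as lines of like shape at 3 heights.

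**Figure D1:**
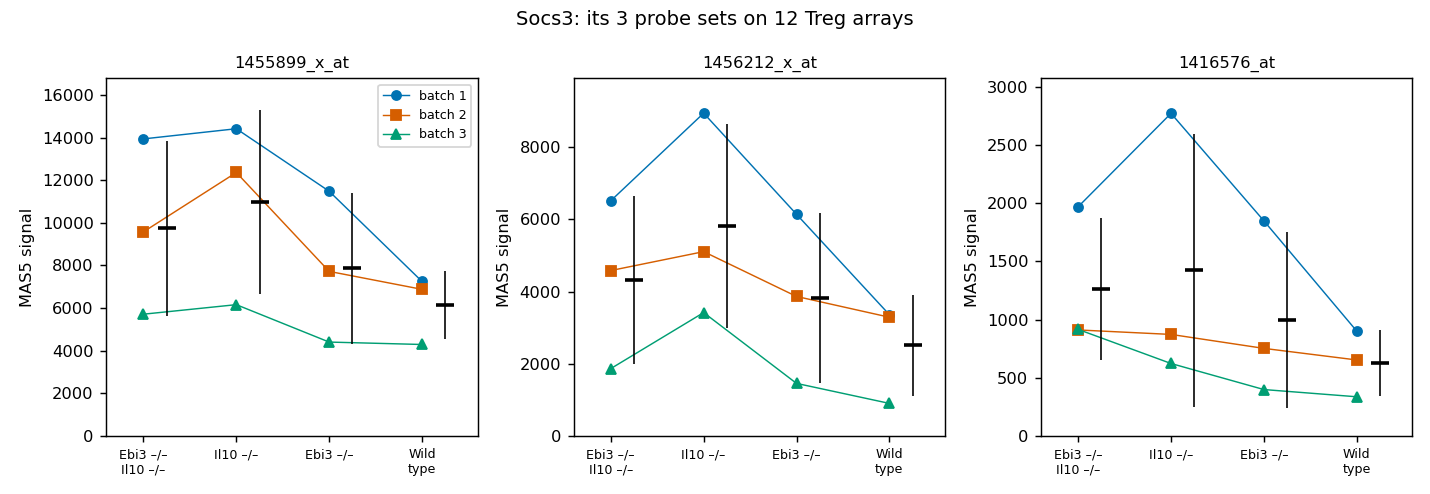
MAS5 signal of the 3 Socs3 probe sets on each array, by genotype, with lines joining arrays of 1 batch and bars for the mean and SD (n = 3). For both x_at probe sets every batch runs highest in Il10 –/–, next in the double knockout, and lowest in wild type, while batch 3 lies under the other batches.

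The probe set 1456212_x_at gave the same picture with a wider range. It read 6518.7, 4582.3 and 1862.5 in the double knockout, 8948.1, 5106.6 and 3416.3 in Il10 –/–, 6142.7, 3863.8 and 1451.8 in Ebi3 –/–, and 3357.4, 3287.5 and 896.9 in wild type. All 3 Il10 –/– arrays were above all 3 wild type arrays, as was the case for 3.14% of all 31235 tested probe sets. The 3rd probe set, 1416576_at, read 1970.3, 910.3 and 914.9 in the double knockout, 2774.1, 871.8 and 621.6 in Il10 –/–, 1849.3, 751.7 and 397.4 in Ebi3 –/–, and 900.5, 652 and 335.2 in wild type. Here the double knockout lay above Il10 –/– in batches 2 and 3, all 3 double knockout arrays were above all 3 wild type arrays (3.2% of all tested probe sets), and wild type was again the lowest array of each batch. An x_at probe set holds probes that also match other transcripts, which 1416576_at by its name does not.

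In Il10 –/– against wild type, the log2 difference of 1455899_x_at was 0.99 in batch 1, 0.84 in batch 2 and 0.52 in batch 3, or 0.79 on average. Its standard error (SE) was 0.42 in the limma fit without batch (adjusted p = 1.00) and 0.13 with batch as a factor (adjusted p = 0.0862). For 1456212_x_at the differences were 1.41, 0.63 and 1.91, with a mean of 1.32, or 2.49-fold. Its SE was 0.64 without batch (adjusted p = 1.00) and 0.19 with it (adjusted p = 0.037), so it passed the threshold of 0.05 in the fit with batch alone, in which 0.0384% of all tested probe sets passed. For 1416576_at the differences were 1.60, 0.41 and 0.85, with a mean of 0.95 (adjusted p = 1.00 without batch and 0.354 with it). The difference was thus above 0 in every batch for all 3 probe sets (unadjusted p = 5.05e-05, 9.46e-06 and 0.00133 in limma with batch, in the order given), and 1 of them passed adjustment over all 31235 probe sets. Of all tested probe sets, 12.5% were above 0 in all 3 batches. The 3 Socs3 probe sets read 1 gene on the same arrays and are not independent of each other. In bulk RNA, more cells that express Socs3 and more Socs3 RNA per cell cannot be told apart.

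With batch in the model and 1 array left out at a time, 1456212_x_at passed in 2 of the 12 fits, those without the batch 2 array of Il10 –/– (adjusted p = 0.0256) or of wild type (adjusted p = 0.022). In the other fits the adjusted p lay between 0.0537 and 0.185, while the log2 difference stayed between 1.07 and 1.55 over all 12. Median centring of each array, with batch, gave an adjusted p of 0.0898.

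In the double knockout against wild type, 1455899_x_at differed by 0.94, 0.48 and 0.41 on the log2 scale in batches 1, 2 and 3 (mean 0.61, adjusted p = 0.215 in limma with batch). The differences of 1456212_x_at were 0.95, 0.48 and 1.04 (mean 0.82, adjusted p = 0.269), and those of 1416576_at were 1.11, 0.47 and 1.40 (mean 0.99, adjusted p = 0.269). All 9 were above 0, and none of the 3 probe sets passed the test. In this comparison 13.9% of all tested probe sets were above 0 in all 3 batches. This comparison and the previous one share the wild type arrays. In the double knockout against Ebi3 –/–, which uses other arrays than Il10 –/– against wild type, 1455899_x_at differed by 0.28, 0.31 and 0.37 (mean 0.32, adjusted p = 0.935 with batch). Those of 1456212_x_at were 0.09, 0.24 and 0.36, and those of 1416576_at were 0.09, 0.27 and 1.16, again all above 0 and not past the threshold. Here 14.5% of all tested probe sets were above 0 in all 3 batches.

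Averaged over both Ebi3 backgrounds, arrays without Il10 exceeded those with Il10 by 0.55 for 1455899_x_at (SE 0.09, adjusted p = 0.0729 in limma with batch), 0.77 for 1456212_x_at (SE 0.13, adjusted p = 0.0785) and 0.73 for 1416576_at (SE 0.17, adjusted p = 0.243). Loss of Ebi3, averaged over both Il10 backgrounds, went with differences of 0.06, 0.05 and 0.26. In Ebi3 –/– against wild type the 3 probe sets differed by 0.29, 0.59 and 0.48, each above 0 in every batch (unadjusted p = 0.0501, 0.00802 and 0.0602 in limma with batch, adjusted p = 0.91 each). Of all tested probe sets, 11.1% were above 0 in all 3 batches there. For the double knockout against Il10 –/–, 12.5% were below 0 in all 3. Between the double knockout and Il10 –/– they differed by -0.17, -0.49 and 0.04, with both x_at probe sets below 0 in every batch (unadjusted p = 0.214, 0.0223 and 0.874 in limma with batch, adjusted p = 1.00 each). Neither pair of neighbours in the order of levels thus passed adjustment over all probe sets, which does not show that they were alike.

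The order of genotypes was then set against the rest of the array, a comparison chosen after the Socs3 values had been seen. Of the 31235 tested probe sets, 0.24% kept 1 order of the 4 genotypes in all 3 batches, whatever the order, and 3 of the 23 tested SOCS family probe sets did. These were 1455899_x_at and 1456212_x_at of Socs3 and 1449109_at of Socs2. The order seen for Socs3 was kept by 4 probe sets in all, or 0.0128%, of which Socs3 gave 2. Both come from 1 gene and are not independent of each other.

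Other measures differed between the same arrays. The mean log2 signal of 21 immediate-early genes was 12.87, 12.62 and 12.04 in the double knockout, 12.89, 12.72 and 12.17 in Il10 –/–, 12.84, 12.93 and 11.87 in Ebi3 –/–, and 10.59, 12.60 and 11.88 in wild type. The wild type array of batch 1 was thus over 1 log2 unit below every other array. In Il10 –/– against wild type, 20 of the 21 genes were above 0, with a median of 0.90 against -0.00 over all tested probe sets, and 0 passed the test in either direction with or without batch. With batch in the model and that array left out, the median was 0.15. The Socs3 differences were then 0.63 for 1455899_x_at (adjusted p = 0.193), 1.23 for 1456212_x_at (adjusted p = 0.0797) and 0.74 for 1416576_at (adjusted p = 0.45). The mean of the list was above wild type by 2.30, 0.12 and 0.28 in Il10 –/– in batches 1, 2 and 3, so it was higher in each batch, as Socs3 was. Its order of genotypes was not that of Socs3. Ebi3 –/– was the highest array of batch 2 (12.93) and lay just under wild type in batch 3 (11.87 against 11.88). The part of the immediate-early genes in the Socs3 result was not tested.

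Markers of other cells also differed between arrays. The summed signal of 13 markers of neutrophils and other myeloid cells ranged from 4928.3 to 49916.5 in the double knockout, 3519.5 to 49278.6 in Il10 –/–, 3787.8 to 25246.3 in Ebi3 –/– and 6730.7 to 33807.3 in wild type, with the highest array of each genotype in batch 3. Socs3 was lowest in that batch. Between genotypes their mean log2 signal in Il10 –/– stood at -0.19, -0.69 and 0.10 from wild type within batches 1, 2 and 3. The list of 9 CD8 T and NK cell genes was above wild type in Il10 –/– by 0.49, 0.45 and 0.38, with 7 of 9 genes above 0. Their summed signal ranged from 2218.4 to 9719 in the double knockout, 2397.8 to 9689 in Il10 –/–, 1928.1 to 4685.9 in Ebi3 –/– and 1874.8 to 7739.5 in wild type. The 6 dendritic cell markers were above wild type by 0.43, 0.30 and 0.75 in Il10 –/–, and their summed signal ranged from 514.8 to 1748.5 in the double knockout, 547.9 to 2087 in Il10 –/–, 564.5 to 1036.7 in Ebi3 –/– and 305.6 to 1381.5 in wild type. The 11 Treg markers (7 above 0, median 0.09), the B cell list (6 genes, 4 above 0, median 0.36) and the erythroid list (2 tested genes, median -0.35) had 0 genes past the threshold, as had every marker list in this comparison. None of the listed markers on the array was at 0. The part of these cells in the Socs3 result was not tested. The plot of Socs3 beside the immediate-early and myeloid lists gives the 12 arrays.

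**Figure D2:**
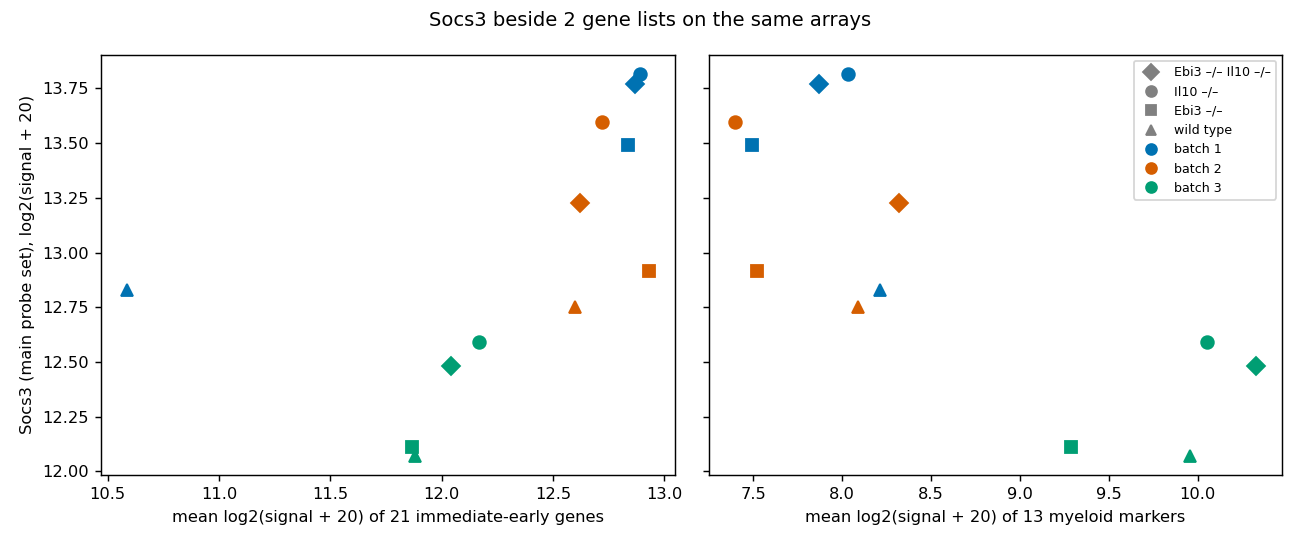
Log2(signal + 20) of the main Socs3 probe set against the mean log2 signal of 21 immediate-early genes (left) and 13 myeloid markers (right), 1 point per array, with shape for genotype and colour for batch. The wild type array of batch 1 stands alone at 10.59 on the left, and the 4 arrays of batch 3 stand apart on the right at 9.29 or more.

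Cish, the founding member of the family and a STAT5 target, has 1 probe set, 1448724_at. It read 7370.3, 7257.6 and 4120.3 in the double knockout, 6598.3, 7516 and 4237.5 in Il10 –/–, 6131.7, 10316.2 and 5207.8 in Ebi3 –/–, and 4782.2, 8198.3 and 4473.9 in wild type. Batch 2 was highest in 3 genotypes and batch 3 lowest in all 4, and the genotypes overlapped. The differences from wild type were 0.11 in the double knockout (adjusted p = 0.879 with batch), 0.09 in Il10 –/– (adjusted p = 0.928) and 0.30 in Ebi3 –/– (adjusted p = 0.91) on the log2 scale. The Ebi3 –/– differences were 0.36, 0.33 and 0.22, above 0 in each batch. In Il10 –/– they were 0.46, -0.13 and -0.08, so Cish took no common direction there.

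Socs2, which limits growth hormone signals and is also a STAT5 target, has 6 probe sets. The main one, 1418507_s_at, read 2059.9, 1647.7 and 1555.5 in the double knockout, 1458.2, 1312.5 and 1612.9 in Il10 –/–, 1432.2, 1438 and 1472.3 in Ebi3 –/–, and 2018.2, 1765.9 and 1552.2 in wild type. All 3 Ebi3 –/– arrays were below all 3 wild type arrays and below all 3 double knockout arrays. The log2 differences from wild type were -0.02 in the double knockout (adjusted p = 0.983 with batch), -0.28 in Il10 –/– (adjusted p = 0.701) and -0.29 in Ebi3 –/– (adjusted p = 0.91). A neighbouring pattern was seen for 1449109_at, which read 1522.6, 718.4 and 835.8 in the double knockout, 1189.3, 654.9 and 769.7 in Il10 –/–, 1041.6, 633.1 and 704.4 in Ebi3 –/–, and 1696.1, 917.6 and 869.7 in wild type. It ran in the same order in every batch, wild type highest, then the double knockout, Il10 –/– and Ebi3 –/–. Its difference was -0.38 in Il10 –/– (unadjusted p = 0.0253, adjusted p = 0.614) and -0.50 in Ebi3 –/– (unadjusted p = 0.00552, adjusted p = 0.91) against wild type in limma with batch. Both probe sets had a positive interaction, the double knockout minus both single knockouts plus wild type, of 0.54 for 1418507_s_at (unadjusted p = 0.0252) and 0.70 for 1449109_at (unadjusted p = 0.00603). Neither passed adjustment (adjusted p = 1.00). The other 4 Socs2 probe sets read between 2.9 and 198.8 and did not all share these directions. Their interactions were 0.86 for 1446085_at, -0.16 for 1438470_at, -0.20 for 1442586_at and -0.60 for 1441476_at. In Il10 –/– against wild type they differed by 0.03, -0.18, 0.20 and 0.04 in that order, none past the threshold.

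Socs1 has 1 probe set, 1450446_a_at, which read 303.5, 87.5 and 100.3 in the double knockout, 232.4, 106 and 185.6 in Il10 –/–, 241.1, 154.1 and 129.4 in Ebi3 –/–, and 324.3, 176.9 and 106.4 in wild type. Batch 1 was highest in every genotype and the genotypes overlapped. The log2 differences from wild type were -0.34 in the double knockout, -0.13 in Il10 –/– and -0.11 in Ebi3 –/–, and the within-batch values in Il10 –/– were -0.45, -0.64 and 0.70. None passed the test (adjusted p = 0.774, 0.942 and 0.977 with batch).

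Socs4 and Socs5 act on receptors of the epidermal growth factor family, and none of their probe sets passed the test in a knockout against wild type. Batch took 75.6% of the spread of the main Socs4 probe set and genotype 9.71%, but for 1421273_at of the same gene they took 13.03% and 46.8%. For both Socs5 probe sets the largest share was left to neither (52.6% and 56.6%). The main Socs4 probe set, 1455142_at, read 711.3, 608.3 and 1087.6 in the double knockout, 867, 570.2 and 962.7 in Il10 –/–, 822.3, 397.8 and 1287.1 in Ebi3 –/–, and 1378.7, 551.9 and 1349.9 in wild type. Batch 2 was lowest in every genotype. The differences from wild type were -0.37 in the double knockout, -0.36 in Il10 –/– and -0.42 in Ebi3 –/– (adjusted p = 0.683, 0.721 and 0.91 with batch). The other Socs4 probe sets did not share this direction in each knockout. The probe set 1421273_at read 222.8, 186.7 and 247.9 in the double knockout and 366.3, 391.4 and 229.9 in Il10 –/–, against 248.4, 273.8 and 214.7 in wild type, so it was higher in Il10 –/– than in wild type in each batch. The main Socs5 probe set, 1423350_at, read 903, 1134.6 and 1093.6 in the double knockout, 815.8, 1081.7 and 1150 in Il10 –/–, 920.3, 1059.8 and 1573.4 in Ebi3 –/–, and 1230.1, 1054.2 and 1065.5 in wild type. Its differences from wild type were -0.10, -0.15 and 0.05 in the double knockout, Il10 –/– and Ebi3 –/– (adjusted p = 0.909, 0.887 and 0.986 with batch). Socs5 lies on chromosome 17, the chromosome of Ebi3, so differences by Ebi3 genotype there cannot be told apart from those of any strain sequence carried with the targeted allele. Its 2nd probe set, 1423349_at, was higher in all 3 Ebi3 –/– arrays (271.3, 268.9 and 294.8) than in all 3 wild type arrays (196.7, 249.5 and 253.7), by 0.24 (adjusted p = 0.939 with batch).

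Socs6 and Socs7 carry long amino-terminal regions and are linked to insulin and growth factor signals. The main Socs6 probe set, 1450129_a_at, read 336.1, 580.9 and 608.3 in the double knockout, 419.9, 439.4 and 601.2 in Il10 –/–, 384.5, 381 and 358.6 in Ebi3 –/–, and 329.7, 508.9 and 508.8 in wild type, with overlapping groups and differences from wild type of 0.15, 0.12 and -0.22 in the double knockout, Il10 –/– and Ebi3 –/–. Another Socs6 probe set, 1435492_at, read 154, 107.6 and 146.6 in Il10 –/– and 253.4, 180.8 and 191.4 in wild type. All 3 Il10 –/– arrays were below all 3 wild type arrays, by -0.65, -0.65 and -0.34 within batches (mean -0.55, unadjusted p = 0.0291, adjusted p = 0.63 with batch). The main Socs6 probe set thus ran the other way on average. The main Socs7 probe set, 1455402_at, read 1862.7, 2940.3 and 2410.5 in the double knockout, 1724.2, 3177.6 and 2269.1 in Il10 –/–, 2158.2, 2730.6 and 2834.8 in Ebi3 –/–, and 1943.6, 2524.5 and 3007.4 in wild type. Batch 1 was lowest in every genotype and the differences from wild type were -0.05, -0.08 and 0.06 in the double knockout, Il10 –/– and Ebi3 –/–. The 4th Socs7 probe set, 1438492_at, read between 2.7 and 26.1, did not reach the filter on low signal and was not tested. The plots of all 8 genes by array and of their differences within batches set Socs3 beside the other members.

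**Figure D3:**
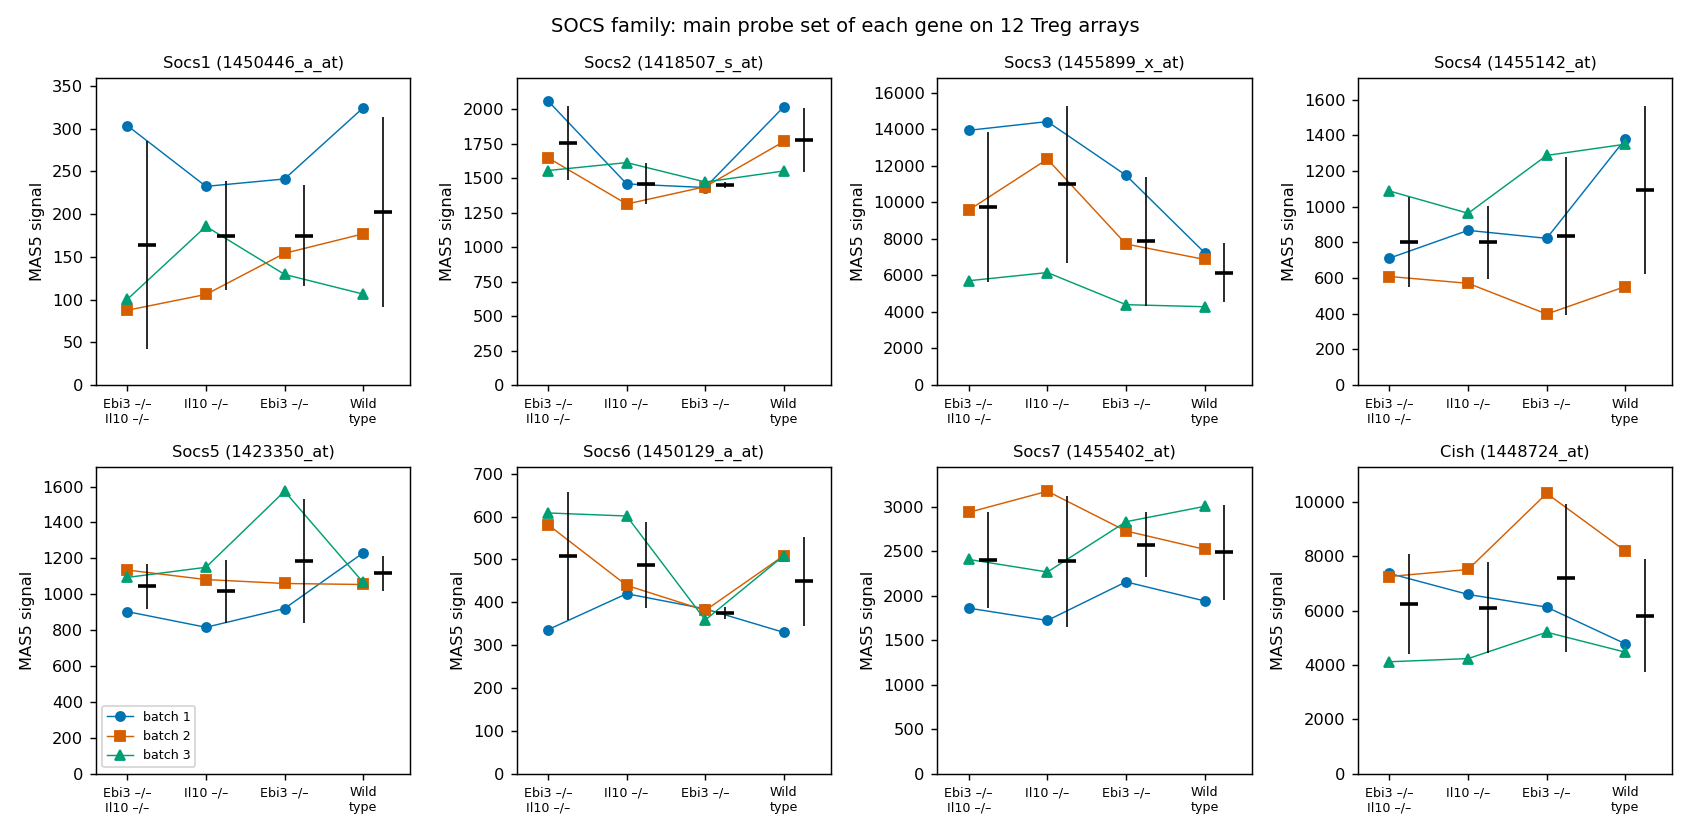
MAS5 signal of the main probe set of each of the 8 genes on each array, by genotype from the double knockout to wild type, with lines joining arrays of 1 batch and bars for the mean and SD (n = 3). In Socs3 the lines of the 3 batches have 1 shape, and in the other genes they cross.

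**Figure D4:**
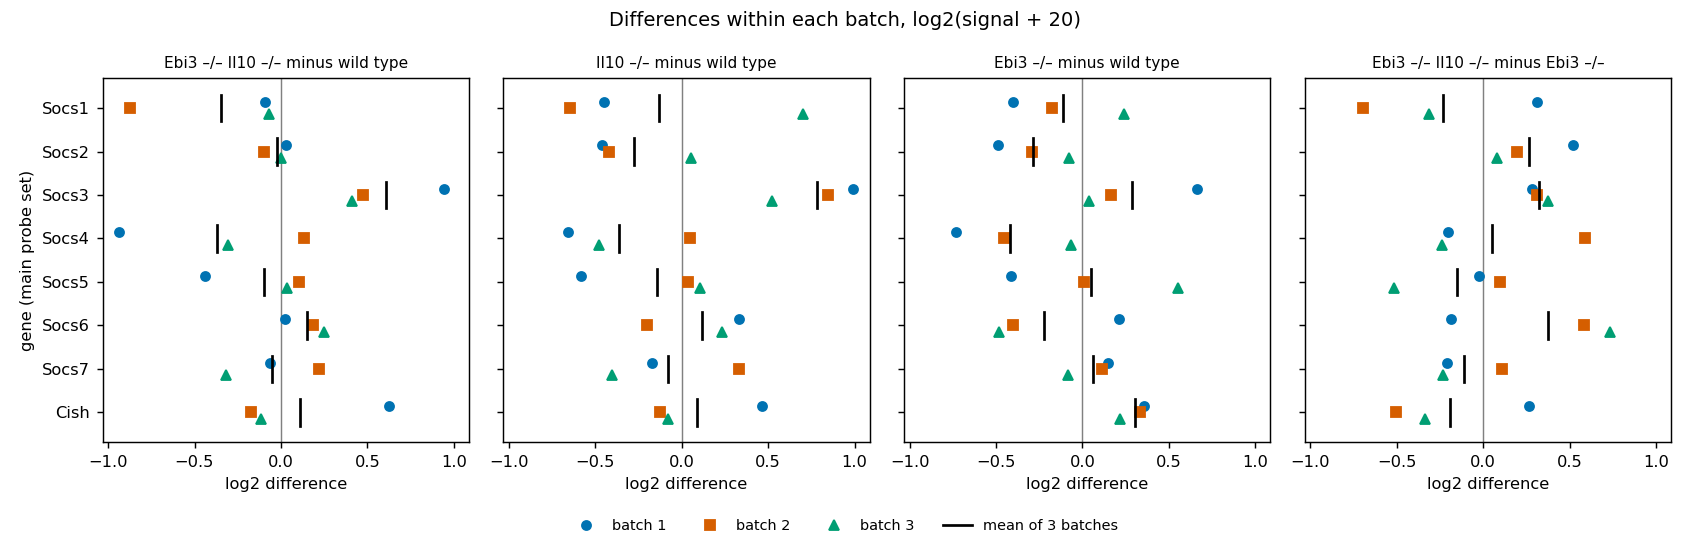
Log2 difference of the main probe set of each gene within each batch (coloured points) and the mean of the 3 batches (black bars), for 4 comparisons. In Il10 –/– minus wild type the Socs3 points lie at 0.99, 0.84 and 0.52, and no other gene has all 3 points on 1 side of 0.

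Over the family, 0 of the 23 tested probe sets passed in any of the 5 pairwise comparisons or the interaction in the limma fit without batch. At an unadjusted p under 0.05 that fit also gave 0 for each knockout against wild type, where 2.14% of all tested probe sets in the double knockout, 1.98% in Il10 –/– and 1.41% in Ebi3 –/– were below it. Of all tested probe sets 0.0096%, 0.0064% and 0.0032% passed adjustment without batch in the double knockout, Il10 –/– and Ebi3 –/–, each against wild type. The shares were 0.0032% for the double knockout against Il10 –/–, 0.0064% for it against Ebi3 –/– and 0% for the interaction. With batch, 1 of 23 passed in Il10 –/– against wild type, which is Socs3 1456212_x_at, beside 0.0384% of all tested probe sets. None passed in the double knockout against wild type, where 0.0416% of all did, or in Ebi3 –/– against wild type, where 0.0032% did. The double knockout had 0 past the threshold with batch against Il10 –/– (0.0032% of all) or Ebi3 –/– (0.0192%), and 0 in the interaction (0%) or the F test of any genotype (0.0416%). At an unadjusted p under 0.05 with batch, 3 passed in the double knockout (8.25% of all tested probe sets), 5 in Il10 –/– (7.68%) and 2 in Ebi3 –/– (5.31%), each against wild type. The double knockout gave 2 against Il10 –/– (3.49%) and 1 against Ebi3 –/– (4.95%), and the interaction gave 5 (3.94%). The 3 in the double knockout were the Socs3 probe sets, and the 5 in Il10 –/– were the Socs3 probe sets, Socs2 1449109_at and Socs6 1435492_at. The 5 in the interaction were Socs2 1418507_s_at and 1449109_at, both x_at probe sets of Socs3, and Socs4 1421273_at. Probe sets of 1 gene are not independent of each other, so these counts are not counts of genes. The members' median log2 difference from wild type was -0.05 in the double knockout, 0.03 in Il10 –/– and 0.03 in Ebi3 –/–, against 0.01, -0.00 and -0.03 over all tested probe sets. The family as a whole was centred near 0, with Socs3 at its upper end.

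Groups that did not overlap were seen for few members. In Il10 –/– against wild type 1 member was higher on all arrays (3.14% of all tested probe sets) and 1 lower (2.74%). Against wild type the double knockout had 2 members higher on all arrays (3.2%), Socs3 1416576_at and Socs4 1421275_s_at, and 0 lower (2.97%). In Ebi3 –/– against wild type 1 was higher (1.96%) and 1 lower (2.21%), the Socs5 and Socs2 probe sets named above. The double knockout had 1 member higher (2.19%) and 0 lower (2.13%) than Il10 –/–, and 1 higher (2.54%) and 3 lower (1.82%) than Ebi3 –/–.

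Batch was the larger source of spread for most members. It passed the F test in 11 of the 23 probe sets, or 47.8%, beside 41.8% of all tested probe sets. Batch took 69.5% of the sum of squares of the main Socs3 probe set, genotype 26.7% and the rest 3.83%. For Cish batch took 77.9% and genotype 7.47%, for Socs1 72.4% and 5.13%, and for Socs7 75.9% and 3.76%. Socs2 1418507_s_at went the other way, with 15.4% for batch and 51.9% for genotype. The mean signal of the main Socs3 probe set in batches 1, 2 and 3 was 11768, 9130 and 5135 (n = 4 each, adjusted p = 3.62e-05 for batch), that of Cish 6221, 8322 and 4510 (adjusted p = 0.000874) and that of Socs1 275, 131 and 130 (adjusted p = 0.00673). Batch 1 was thus highest for Socs3 and Socs1, and batch 2 for Cish. The plot of shares shows the part left over after batch and genotype, which was 3.83%, 4.80% and 8.48% for the Socs3 probe sets. Among the 23 tested probe sets it was smallest for Socs2 1449109_at, at 3.39%.

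**Figure D5:**
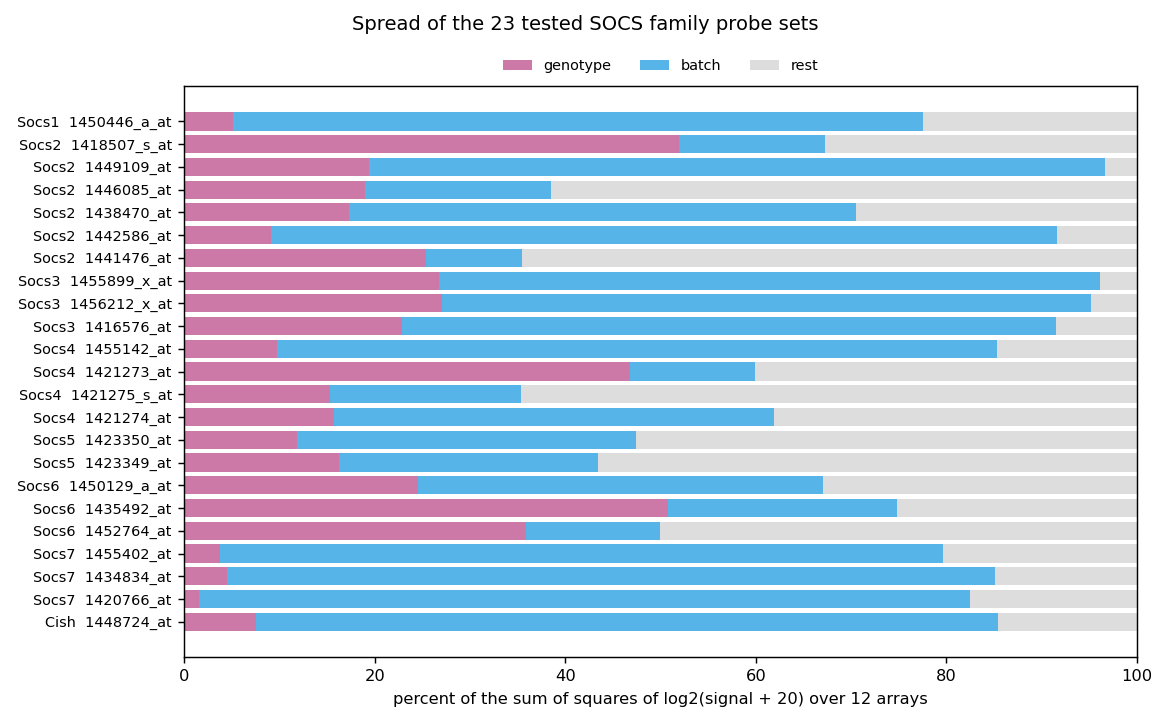
Share of the sum of squares of log2(signal + 20) over the 12 arrays that falls to genotype, batch and the rest, in percent, for the 23 tested probe sets. The rest is 3.83% for the main Socs3 probe set, and batch is the larger part for Socs3, Cish, Socs1 and Socs7.

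The partners of the family in the pathway were read from lists of genes, each counted by its main probe set. None of 10 Janus kinases and STATs passed in either direction in any knockout against wild type, with or without batch, and their medians were 0.03 in the double knockout, -0.00 in Il10 –/– and -0.07 in Ebi3 –/–. Of 20 receptor chains 0 passed, with medians of 0.03, 0.09 and 0.03 in the same order of genotypes. Il6st, which encodes gp130, the chain that Socs3 binds, was -0.63, -0.14 and -0.46 from wild type in Il10 –/– within batches 1, 2 and 3 (mean -0.41, adjusted p = 0.566 with batch). Ifngr1, a chain of the interferon gamma receptor, was 0.41 in Il10 –/– (adjusted p = 0.633). Of 13 other negative regulators, phosphatases and PIAS proteins among them, 0 passed, with medians of 0.11, 0.04 and 0.02 in the double knockout, Il10 –/– and Ebi3 –/–. The mean log2 signal of this list was above wild type in every batch of each knockout, as Socs3 was. In Il10 –/– it was higher by 0.24, 0.09 and 0.22 in batches 1, 2 and 3. Ptpn6, the phosphatase SHP-1, was -0.45 in the double knockout (adjusted p = 0.436). Of 6 partners of the SOCS box in its ubiquitin ligase 0 passed, with medians of -0.18, -0.16 and -0.08. Their mean log2 signal was below wild type in every batch of each knockout, at -0.11, -0.23 and -0.06 in batches 1, 2 and 3 of Il10 –/–.

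Among cytokines that signal through Janus kinases, Ebi3 itself fell in the double knockout (-4.88) and in Ebi3 –/– (-5.23), and no other of the 15 tested genes passed. In Il10 –/– all 15 were above 0, with a median of 0.60 against -0.00 over all tested probe sets, and 0 passed. Il10 itself is among the 15, and its probe set, as given above, did not follow the label. The mean of the 21 listed genes on the array was above wild type in Il10 –/– by 0.68, 0.33 and 0.26 in batches 1, 2 and 3. Medians were 0.29 in the double knockout and 0.33 in Ebi3 –/–. Ifng, which encodes interferon gamma, was 2.37, 1.47 and 1.37 above wild type in the double knockout in batches 1, 2 and 3 (mean 1.73, adjusted p = 0.137 with batch) and 2.95, 1.10 and 1.01 in Il10 –/– (mean 1.69, adjusted p = 0.224). Csf2, which encodes GM-CSF, was 1.80, 0.71 and 1.16 above wild type in Il10 –/– (mean 1.22, adjusted p = 0.443). These genes were above 0 in every batch, like Socs3, and did not pass the test.

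No gene listed as responding to STAT3 or to STAT5 passed the test in a knockout against wild type. Of 12 STAT3 response genes 0 passed, with medians of 0.09 in the double knockout, 0.21 in Il10 –/– and 0.05 in Ebi3 –/–. In Il10 –/– 10 of the 12 were above 0, where the median over all tested probe sets was -0.00. The mean of the list was above wild type there by 0.81 in batch 1, but by 0.07 in batch 2 and 0.07 in batch 3. Il6st, given above, is also on this list and was below 0. Junb, the listed gene of smallest p there, was 2.61, 0.24 and 0.76 above wild type in Il10 –/– (mean 1.20, adjusted p = 0.555 with batch), and Il17a, a STAT3-driven cytokine, was 2.20, 2.48 and 1.12 above wild type in the double knockout (mean 1.94, adjusted p = 0.269). Junb is also among the immediate-early genes. Of 13 STAT5 response genes 0 passed, with medians of -0.23, -0.12 and -0.16 in the double knockout, Il10 –/– and Ebi3 –/–. Ccnd2, a cyclin induced through STAT5, was -0.40 in the double knockout (adjusted p = 0.527) and -0.42 in Il10 –/– (adjusted p = 0.572). Medians of the immediate-early list were 0.80 in the double knockout and 0.68 in Ebi3 –/–.

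The genes most like Socs3 were found by the correlation of the main probe set with all other named probe sets over the 12 arrays after each batch mean was removed. They were Rpl27a (r = 0.96), Ikbip (0.95), Dmpk (0.95), Btg2 (0.93) and Aph1a (0.93). Btg2 is one of the immediate-early genes listed. For Cish they were Foxj3 (0.96), Zfp106 (0.95), Spata2 (0.94), Rilpl2 (0.93) and Tcf12 (0.93), for Socs1 Dbn1 (0.96), Mysm1 (0.94), Nbeal1 (0.93), Tubb4b (0.93) and Ndufs8 (0.93), and for Socs2 Maf1 (0.96), Rrm1 (0.95), Trpm1 (0.92), Mzt1 (0.92) and Cpd (0.91). The lists shared no gene. With 12 arrays that share batches and 31235 probe sets to choose from, these correlations are descriptions alone.

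The probe sets of 1 gene did not always move together. The 3 Socs3 probe sets correlated with each other at r = 0.87 to 0.95 over the 12 arrays, and at 0.80 to 0.83 after batch means were removed. Socs2 1418507_s_at and 1449109_at correlated at 0.73, and at 0.88 after batch means were removed. Both Socs5 probe sets correlated at 0.15 and 0.02, and Socs6 1450129_a_at and 1435492_at at -0.34 and -0.35. Between genes, the most extreme pair was Socs4 and Cish, at -0.91 over the 12 arrays and -0.70 after batch means were removed. Socs3 and Cish correlated at 0.55, and at 0.15 after batch means were removed.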

How the data were processed

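Per the submitters' processing notes, MAS5 and Partek 6.4 were used. The authors deposited 1 table in natural log units, which the values show to be ln(signal + 20) of MAS5 signals. For signals below 200 the back-calculated values were multiples of 0.1 within 0.005, and the mean of each array, with 2% cut off at both ends, was 500. Values were analysed as log2(signal + 20) with no further normalization. The test took in the 31235 probe sets that lay at or above percentile 40 of the array on 3 arrays or more. The 4 genotypes were fitted in 1 limma model (version 3.58.1, R 4.3.3; lmFit, eBayes with trend) without batch (8 residual degrees of freedom) and, as the replicate block, with batch (6). P-values were adjusted by Benjamini-Hochberg over all tested probe sets, with a threshold of 0.05. Both fits were also run on simulated data with independent noise. The outcome is not given here, and no result above rests on it.

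The labels name the batch, so replicate numbers pair the arrays. After genotype means were removed, same-numbered arrays correlated at 0.325 to 0.664 (18 pairs), and arrays that differed in both number and genotype at -0.531 to -0.0204. The removal makes the values of a genotype sum to 0. Where same-numbered arrays correlate above 0 it thus pushes the others below 0, and their sign adds nothing. Each gene is led by its tested probe set of highest mean signal, its main probe set. List members are named if they pass in either fit, and otherwise the 2 of smallest p with batch in a comparison may be named. One further gene list is not reported here. The members, the lists and the tests were chosen with earlier results of these data known. Precision is limited by the number of arrays. Alternatives were other offsets, quantile normalization, median centring, no filter, and leaving out arrays or batches.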

Additional observations from a re-analysis of the deposited data

Results flagged for a closer look

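For 4 of the 23 tested probe sets of the family the effect of 1 knockout took opposite signs in every batch, depending on whether the other gene was present. The share of all tested probe sets that did so was not counted, so the 4 are not a result about the family. Both x_at probe sets of Socs3 are among them and are not independent of each other. The difference between both effects is the interaction, which was tested and passed adjustment for none of them (adjusted p = 1.00 in limma with batch).

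For both x_at probe sets of Socs3, loss of Ebi3 went with higher signal on the wild type background and lower signal on the Il10 –/– background in all 3 batches. The 3rd Socs3 probe set, 1416576_at, did not share this. Between the double knockout and Il10 –/– it differed by -0.49, 0.06 and 0.54 in batches 1, 2 and 3 (interaction, unadjusted p = 0.204 in limma with batch). For 1455899_x_at the effect was -0.17 between the double knockout and Il10 –/– and 0.29 between Ebi3 –/– and wild type, a difference of 0.46 between the effects (unadjusted p = 0.029 with batch). For 1456212_x_at the effects were -0.49 and 0.59, a difference of 1.09 (unadjusted p = 0.00136).

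Socs2 1449109_at went the other way, lower in each single knockout than in wild type and higher in the double knockout than in each single knockout in all 3 batches. Both effects differed by -0.70 between backgrounds (unadjusted p = 0.00603). For Socs4 1421273_at, loss of Il10 went with -0.40 on the Ebi3 –/– background and with higher signal than wild type on the other, and the effects differed by 0.76 (unadjusted p = 0.0347).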

How the results depend on the processing

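Of 1905 values recomputed with an array or a batch left out, 1759 kept their direction and their side of the threshold and 133 changed sign. Of 515 recomputed under other processing settings 504 kept both and 2 changed sign. With the replicate block, that is batch as a factor, 1 SOCS family probe set passed in Il10 –/– against wild type, against 0 without it, and the block changed no other count of calls. A further 5 combinations of the block with another setting were chosen after seeing the data, and Socs3 1456212_x_at passed in 4 of these 5. Socs4 in the double knockout against Ebi3 –/–, 0.0486 as analysed, became -0.0335 with median centring and -0.0203 with quantile normalization. The cause of each change was not tested.

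With arrays or batches left out, the count of calls ranged from 0 to 1 in Il10 –/– against wild type and in the average difference by Il10 genotype. The count of listed pathway genes called ranged from 0 to 1 in the double knockout against wild type and against Il10 –/–, and in Ebi3 –/– against wild type. The count of members that differed by batch ranged from 7 to 12. The log2 ranges of results that changed sign follow, over fits with and without batch. With the replicate block and 1 array left out, the main Socs3 probe set kept its sign in all 12 fits of each comparison (0.14 to 0.41 in Ebi3 –/– against wild type, -0.24 to -0.10 in the double knockout against Il10 –/–). So did 1456212_x_at (0.44 to 0.83 and -0.72 to -0.25), and so did 1416576_at, except in the double knockout against Il10 –/– (-0.22 to 0.25, with 3 of 12 changed).
In the double knockout against wild type they were Socs1 -0.85 to 0.0305, Socs2 -0.14 to 0.072, Socs5 -0.25 to 0.11, Socs6 -0.0459 to 0.42, Socs7 -0.22 to 0.12, Cish -0.15 to 0.38. In Il10 –/– against wild type they were Socs1 -0.55 to 0.25, Socs5 -0.29 to 0.0723, Socs6 -0.0789 to 0.28, Socs7 -0.31 to 0.13, Cish -0.10 to 0.36. In Ebi3 –/– against wild type they were Socs3 -0.0365 to 0.65, Socs3 1456212_x_at -0.028 to 1.17, Socs3 1416576_at -0.0884 to 0.99, Socs1 -0.46 to 0.26, Socs4 -0.84 to 0.0254, Socs5 -0.20 to 0.28, Socs7 -0.11 to 0.20. In the double knockout against Ebi3 –/– they were Socs3 -0.0433 to 0.66, Socs3 1456212_x_at -0.35 to 0.74, Socs3 1416576_at -0.000426 to 1.08, Socs1 -0.74 to 0.059, Socs4 -0.39 to 0.43, Socs5 -0.31 to 0.0714, Socs7 -0.27 to 0.0581, Cish -0.42 to 0.096. In the double knockout against Il10 –/– they were Socs3 -0.55 to 0.16, Socs3 1456212_x_at -0.88 to 0.0211, Socs3 1416576_at -0.39 to 0.67, Socs1 -0.72 to 0.0968, Socs4 -0.24 to 0.18, Socs5 -0.10 to 0.15, Socs6 -0.14 to 0.30, Socs7 -0.18 to 0.25, Cish -0.22 to 0.30. In the interaction they were Socs3 1416576_at -0.95 to 0.18.

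Limits: 3 arrays per genotype limit precision. Replicates of the labels are not said to be separate animals, the Il10 label was not checked by its probe set, and x_at probe sets can bind other transcripts. Signals at the low end, such as those of 1441476_at, 1452764_at and 1438492_at, lie where the offset of 20 makes log2 differences smaller than those of the signal itself.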
